A study of Canis lupus familiaris and Dasypus novemcinctus and Ornithorhynchus anatinus with 3 samples.

Results

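Protein disulfide isomerases and reticulocalbins are proteins of the endoplasmic reticulum (ER), the compartment in which secreted and membrane proteins fold. The 10 genes described here were taken by gene symbol. They are P4HB, PDIA3, PDIA4, PDIA5, PDIA6, TXNDC5, ERP44 and AGR2 for the isomerases, and RCN1 and RCN2 for the reticulocalbins. All 10 were listed in the platypus table (of 18481 genes) and in the dog table (of 19290 genes), and 8 were listed in the armadillo table (of 12335 genes). PDIA5 and TXNDC5 had no row under their symbols in armadillo and were not analysed there. The group was assembled because several of its genes were very high in platypus while P4HB was low, so the platypus values below describe the choice and were not tested.

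The libraries were messenger RNA sequencing of endometrium, the inner lining of the uterus, from pregnant platypus (Ornithorhynchus anatinus), dog (Canis lupus familiaris) and armadillo (Dasypus novemcinctus). There was 1 library per species, with no treatment and no non-pregnant group. The labels name neither the stage of pregnancy nor the breed, age or number of animals behind a library. Species, animal, stage and library therefore cannot be told apart, and no difference has a replicate check. The tables summed to 2243556 reads in platypus, 13625465 in dog and 13218476 in armadillo, so a low count is less precise in platypus. Genes listed at 0 made up 42.4% of the platypus table and 21.8% of the dog table, while the armadillo table held no gene at 0. Levels are given as reads and as normalised CPM, which is CPM (reads scaled to the library total) times a factor per library, and their 95% intervals cover counting error only. In whole tissue, fewer cells of a type and less RNA per cell cannot be told apart.

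Disulfide isomerases carry thioredoxin-like domains, and in many of them, though not all, paired cysteines make, break and exchange disulfide bonds in new proteins. P4HB is the archetype of the family and also serves as the beta subunit of the collagen prolyl hydroxylase and as a subunit of the lipid transfer protein MTTP. PDIA3 works on glycoproteins handed over by calreticulin and calnexin. PDIA4 and PDIA6 are further members of the ER folding machinery, and ERP44 retrieves unassembled secretory proteins and oxidases from the early secretory pathway. AGR2 is a small member of mucus-secreting and glandular epithelia. The reticulocalbins RCN1 and RCN2 belong to the CREC family of calcium-binding EF-hand proteins of the secretory pathway and have no isomerase domain.

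Markers of the labelled tissue and of its cell types were described before the genes were compared. Of 10 markers of endometrial or Müllerian identity, 8 of 9 listed had reads in platypus, with the oestrogen receptor gene ESR1 at 1147 normalised CPM and the progesterone receptor gene PGR at 349. In dog 6 of 7 listed had reads, led by EMX2 at 19.9 normalised CPM, with ESR1 at 6.55 and MSX1 at 2.52. In armadillo 5 were listed, led by HOXD10 at 37.0. No armadillo gene was listed at 0, so having reads there cannot check the tissue. Epithelial markers differed widely, with a summed level of 79.7 normalised CPM over 7 listed genes in platypus, 2189 over 5 in dog and 843 over 7 in armadillo. In platypus ST14 and CLDN3 were listed at 0, the keratin gene KRT7 had 5 reads, and FOXA2, a transcription factor of uterine glands, gave 129 of the 149 epithelial reads. Smooth muscle markers summed to 19913 normalised CPM over 7 listed genes in platypus, 113 over 5 in dog and 26474 over 5 in armadillo. ACTA2 gave 13562 of the platypus sum and had no row under its symbol in dog. Stromal markers summed to 10272 normalised CPM over 7 listed genes in platypus, 499 over 2 in dog and 26525 over 7 in armadillo. Endothelial markers summed to 27.3 normalised CPM in platypus, where 5 of 7 listed were at 0, 86.2 over 3 listed genes in dog and 10081 over 6 in armadillo. These sums run over different genes in each library. The part of these cell types in the values below was not tested.

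P4HB was the one gene of the group that was low in platypus. It had 51 reads or 27.3 normalised CPM in platypus, 22561 reads or 1319.7 normalised CPM in dog, and 16519 reads or 1246 normalised CPM in armadillo. The dog and armadillo libraries stood close together and far above platypus. The level was 48.4-fold (95% interval 36.8 to 65.0) lower in platypus than in dog and 45.7-fold (95% interval 34.7 to 61.4) lower in platypus than in armadillo. By reads, P4HB took place 4063 among platypus genes, place 39 in dog and place 95 in armadillo. Whether the platypus gene model (ENSOANG00000006117) covers the whole transcript was not tested. Low platypus counts were frequent, since 27.3% of 9073 genes matched with dog (2474) were called at least 4-fold lower in platypus. With 2 CPM required in both libraries, 855 were called lower, and P4HB was still among them. Counted from the lowest log2 fold, P4HB took place 531 of these 9073 genes and place 579 of 7296 genes matched with armadillo.

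PDIA3, PDIA4 and PDIA6 had the opposite pattern and were among the platypus genes with most reads. PDIA3 had 34406 reads or 18405 normalised CPM in platypus, 12714 reads or 744 normalised CPM in dog, and 13556 reads or 1022 normalised CPM in armadillo. PDIA4 had 31003 reads or 16584 normalised CPM in platypus, 15813 reads or 925 normalised CPM in dog, and 8052 reads or 607 normalised CPM in armadillo. PDIA6 had 27862 reads or 14904 normalised CPM in platypus, 6294 reads or 368 normalised CPM in dog, and 10509 reads or 792 normalised CPM in armadillo. For these genes platypus held more reads than dog although its library was much the smaller. PDIA3 was 24.7-fold (95% interval 24.2 to 25.3) higher in platypus than in dog and 18.0-fold (95% interval 17.6 to 18.4) higher than in armadillo. The order of the eutherians was not fixed, since PDIA4 was higher in dog and PDIA3 and PDIA6 were higher in armadillo. PDIA4 was 17.9-fold (95% interval 17.6 to 18.3) higher in platypus than in dog and 27.3-fold (95% interval 26.7 to 28.0) higher than in armadillo. PDIA6 was 40.5-fold (95% interval 39.4 to 41.6) and 18.8-fold (95% interval 18.4 to 19.2) higher in platypus than in dog and in armadillo.

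**Figure D1:**
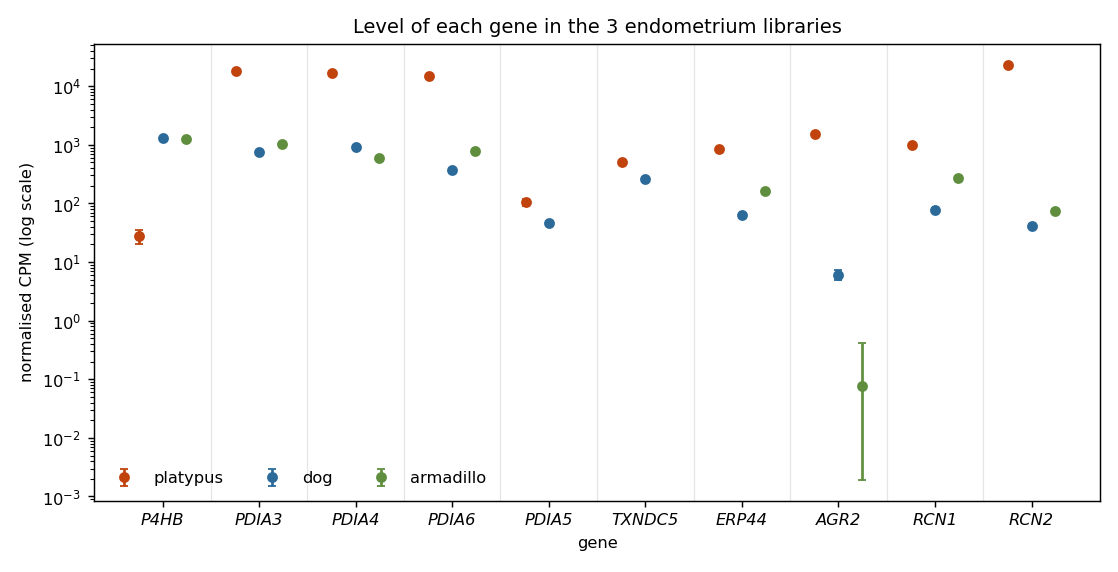
Level of each of the 10 genes in normalised CPM on a log axis, 1 point per library, with exact Poisson 95% intervals that are mostly smaller than the points. PDIA3, PDIA4, PDIA6 and RCN2 lie between 14904 and 23040.1 in platypus, where P4HB lies at 27.3; armadillo has no point for PDIA5 and TXNDC5, and its AGR2 point is 1 read.

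The remaining isomerases differed less between the libraries, with the exception of AGR2. PDIA5 had 197 reads or 105 normalised CPM in platypus and 802 reads or 46.9 normalised CPM in dog, a 2.25-fold (95% interval 1.91 to 2.63) difference. TXNDC5, a thioredoxin-domain isomerase also known as endothelial PDI, had 939 reads or 502 normalised CPM in platypus and 4428 reads or 259 normalised CPM in dog, a 1.94-fold (95% interval 1.81 to 2.08) difference. Both lay under the 4-fold limit used here. The ratio of TXNDC5 to PDIA5 reads was 4.77 (95% interval 4.08 to 5.59) in platypus and 5.52 (95% interval 5.12 to 5.96) in dog, so these genes stood in a similar proportion in both libraries.

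ERP44 had 1573 reads or 841 normalised CPM in platypus, 1084 reads or 63.4 normalised CPM in dog, and 2164 reads or 163 normalised CPM in armadillo. It was 13.3-fold (95% interval 12.3 to 14.4) higher in platypus than in dog and 5.16-fold (95% interval 4.83 to 5.50) higher than in armadillo. ERP44 and its relative ERP29 kept a narrow proportion, with 0.838 ERP44 reads per ERP29 read in platypus (95% interval 0.783 to 0.896), 0.650 in dog (95% interval 0.602 to 0.702) and 0.889 in armadillo (95% interval 0.839 to 0.943).

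AGR2 spanned the widest range of the 10 genes. It had 2878 reads or 1539.5 normalised CPM in platypus, 103 reads or 6.02 normalised CPM in dog, and 1 read or 0.0754 normalised CPM (95% interval 0.00191 to 0.420) in armadillo. The platypus level was 256-fold (95% interval 209.9 to 314) above that of dog. Against armadillo the ratio was 20416 (95% interval 3661 to 806657), and its width comes from the single armadillo read. The 7 markers of secretory epithelium summed to 24.1 normalised CPM over 3 listed genes in platypus, 67.6 over 4 in dog and 58.0 over 4 in armadillo. Among them, the transcription factor SPDEF had 45 reads in platypus and 1 in dog, while ELF3 and TFF3 were listed at 0 in platypus. AGR3, the nearest relative of AGR2, had no row under its symbol in these tables.

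RCN2 was the gene with most reads in the platypus library and ranked far lower in the others. It had 43072 reads or 23040.1 normalised CPM in platypus (ENSOANG00000002100), 696 reads or 40.7 normalised CPM in dog, and 997 reads or 75.2 normalised CPM in armadillo. By reads it took place 1 in platypus, 4550 in dog and 2457 in armadillo. The platypus level was 566-fold (95% interval 525 to 611) above dog and 306-fold (95% interval 288 to 327) above armadillo. Its log2 fold was the 13th highest of 9073 genes matched between platypus and dog and the 6th highest of 7296 matched between platypus and armadillo.

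RCN1 followed the same direction at a smaller size. It had 1849 reads or 989 normalised CPM in platypus, 1348 reads or 78.8 normalised CPM in dog, and 3560 reads or 268 normalised CPM in armadillo. The level was 12.5-fold (95% interval 11.7 to 13.5) higher in platypus than in dog and 3.68-fold (95% interval 3.48 to 3.90) higher than in armadillo, just under the 4-fold limit. With upper-quartile scaling it passed that limit against armadillo as well. RCN2 had 23.3 reads per RCN1 read in platypus (95% interval 22.2 to 24.4), against 0.516 in dog (95% interval 0.471 to 0.566) and 0.280 in armadillo (95% interval 0.261 to 0.301). RCN2 thus had more reads than RCN1 in platypus and fewer in dog and in armadillo, in a ratio that no scaling between libraries can move.

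Calls were counted with a limit of 4-fold on log2 of normalised CPM plus 1, with at least 5 normalised CPM in the higher library. All 10 genes reached that level in platypus and in dog, as did 7 of the 8 listed in armadillo. Between platypus and dog, 7 of 10 genes were called higher in platypus and 1 lower, where 13.5% of all 9073 matched genes were called higher, 27.3% lower and 40.7% either way. The median log2 fold was 3.94 for the group and -0.25 for all matched genes. Between platypus and armadillo, 6 of 8 genes were called higher in platypus and 1 lower, where 13.2% of 7296 matched genes were called higher, 34.0% lower and 47.2% either way. The median log2 fold was 4.20 for the group and -0.89 for all matched genes. Of the 8 genes listed in all tables, 6 were called higher in platypus against both other species and 1 lower against both, where 7.42% and 22.9% of 6386 genes were. These comparisons share the platypus library, and the genes were chosen on them, so the counts are a description. The members called higher against dog were PDIA3, PDIA4, PDIA6, ERP44, AGR2, RCN1 and RCN2, and the same without RCN1 against armadillo. Other scalings moved all folds of platypus over dog by between -0.59 and 0.42 on the log2 scale, and those of platypus over armadillo by between -0.27 and 0.50.

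**Figure D2:**
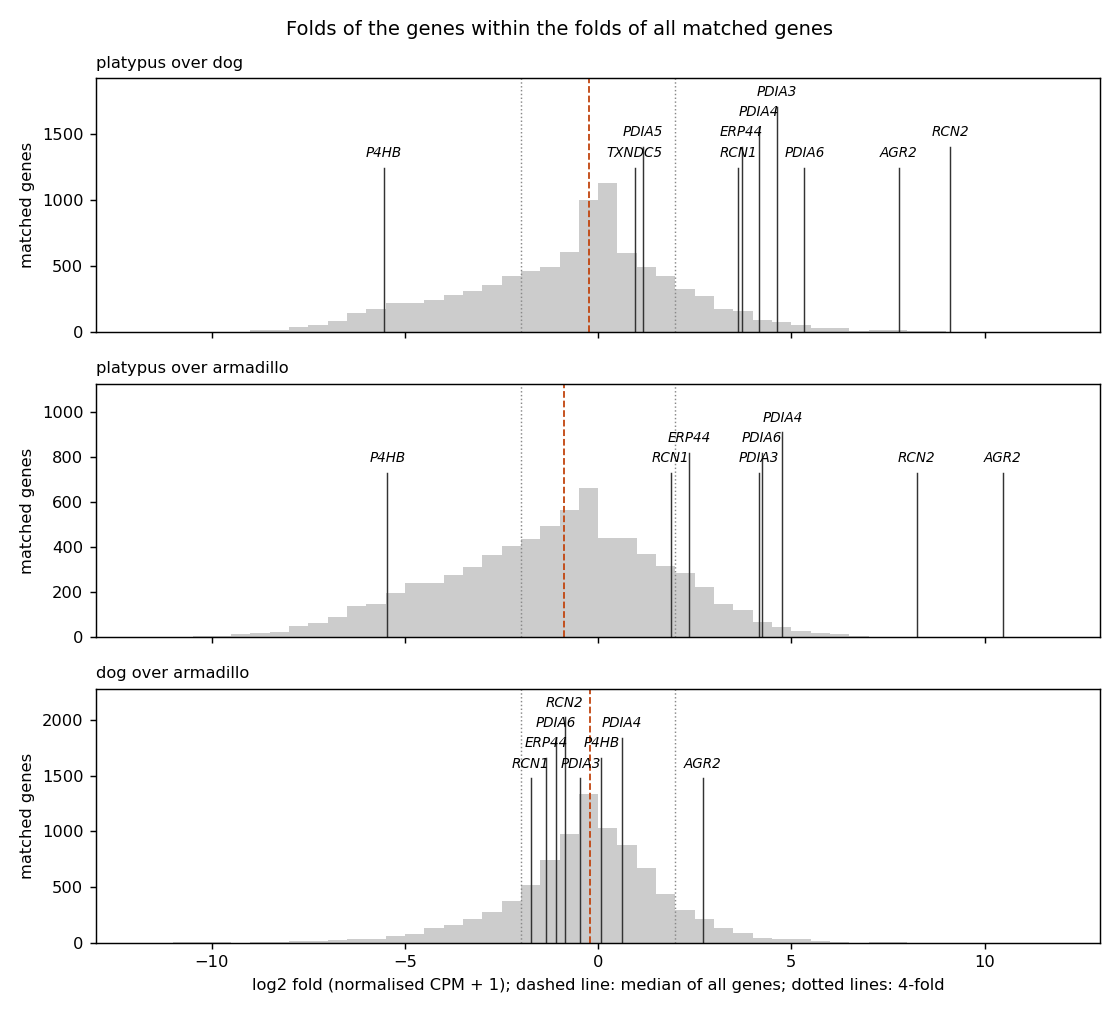
Log2 fold of each gene (vertical lines, labelled) within the histogram of all matched genes, for platypus over dog, platypus over armadillo and dog over armadillo. Between platypus and dog, RCN2 lies at 9.11 and P4HB at -5.55 while the median of all genes (dashed) is -0.25; between dog and armadillo every line but that of AGR2 lies inside the 4-fold limits (dotted).

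In point estimates, dog and armadillo, both placental mammals, differed by a smaller ratio than either did from platypus. This held for each of the 8 genes listed in all tables. The genes were chosen for their platypus values, so this order in part restates the choice. For RCN1 the ratios were close, at 3.40 between dog and armadillo and 3.68 between platypus and armadillo. For AGR2 the interval between dog and armadillo (14 to 3186) takes in the 256-fold of platypus over dog. P4HB was nearly equal at 1319.7 normalised CPM in dog and 1246 in armadillo, a ratio of 1.06 (95% interval 1.04 to 1.08). PDIA4 was 1.52-fold (95% interval 1.48 to 1.56) higher in dog. The other genes apart from AGR2 were lower in dog. PDIA3 was 1.37-fold (95% interval 1.34 to 1.41) lower in dog than in armadillo, RCN2 1.85-fold (95% interval 1.67 to 2.04), PDIA6 2.15-fold (95% interval 2.09 to 2.22), ERP44 2.57-fold (95% interval 2.39 to 2.77) and RCN1 3.40-fold (95% interval 3.20 to 3.63). The small ratios depend on scaling, since other scalings moved all folds of dog over armadillo up by between 0.08 and 0.39 on the log2 scale. Of the 8 genes, 1 was called higher in dog and 0 lower, where 9.76% of 8908 matched genes were called higher (869), 15.2% lower (1358) and 25.0% either way. With totals over matched genes, 1164 genes were called higher in dog and 1135 lower. That gene was AGR2, whose ratio of 79.9 (95% interval 14 to 3186) rests on 1 armadillo read.

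The summed level of the group was highest in platypus, which in part restates how the genes were chosen. The 8 genes listed in all tables took 6.36% (exact binomial 95% interval 6.33 to 6.39) of platypus reads, 0.445% (0.441 to 0.448) of dog reads and 0.419% (0.415 to 0.422) of armadillo reads. PDIA3, PDIA4, PDIA6 and RCN2 alone took 6.08% of platypus reads, 0.261% of dog reads and 0.251% of armadillo reads. RCN1 and RCN2 together took 2.0% of reads in platypus, 0.0150% in dog and 0.0345% in armadillo.

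The make-up of that sum does not depend on scaling between libraries. P4HB held 0.0357% (95% interval 0.0266 to 0.0470) of the reads of the 8 genes in platypus, 37.2% (36.8 to 37.6) in dog and 29.8% (29.5 to 30.2) in armadillo. It was the largest share in dog and in armadillo and the smallest in platypus. RCN2 held 30.2% (29.9 to 30.4) in platypus, 1.15% (1.06 to 1.24) in dog and 1.80% (1.69 to 1.92) in armadillo. The share of PDIA3 moved least among the abundant genes, with 24.1% in platypus, 21.0% in dog and 24.5% in armadillo. PDIA4 held 21.7%, 26.1% and 14.5% and PDIA6 held 19.5%, 10.4% and 19.0% in platypus, dog and armadillo. AGR2 held 2.02% in platypus, 0.170% in dog and 0.00181% in armadillo. These shares depend on the largest one. Without RCN2 in platypus and without P4HB in dog and in armadillo, PDIA3 held 34.5% in platypus, 33.4% in dog and 34.9% in armadillo. On that basis PDIA4 held 31.1%, 41.6% and 20.7% and PDIA6 held 28.0%, 16.5% and 27.1% in platypus, dog and armadillo.

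**Figure D3:**
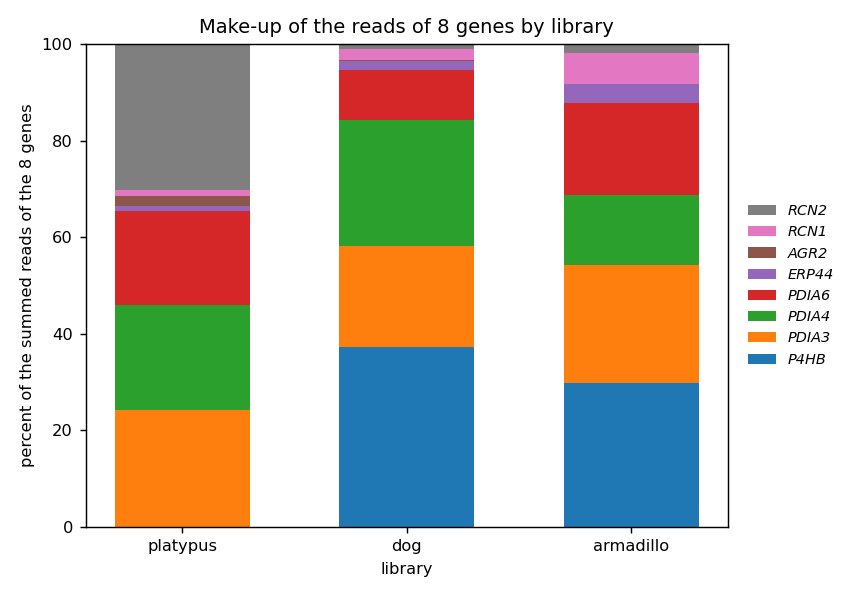
Stacked shares of the 8 genes listed in all tables in the sum of their reads, in percent, 1 bar per library. P4HB fills 37.2% of the dog bar and 29.8% of the armadillo bar and is too thin to see in platypus at 0.0357%, where RCN2 fills 30.2%.

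Levels of different genes were compared per gene length only in dog, whose table gives a relative abundance. It was taken as proportional to reads per length, which was not checked against gene lengths. On that deposited scale P4HB stood at 623 in dog, PDIA4 at 375, PDIA3 at 344, PDIA6 at 159, TXNDC5 at 151, RCN1 at 62.3, ERP44 at 40.0, RCN2 at 29.2, PDIA5 at 21.1 and AGR2 at 8.01. Correction for length exchanged only PDIA5 and RCN2 in the order by reads. By the length implied by reads over this abundance, the AGR2 gene model was the shortest, at 0.348 of the PDIA3 length in dog. If the dog lengths are applied to the other tables, an assumption that the files do not check, RCN2 reached 1.94 times the per-length level of PDIA3 in platypus, against 0.0849 times in dog and 0.114 times in armadillo. On the same assumption P4HB reached 0.00151 times the PDIA3 level in platypus, 1.81 times in dog and 1.24 times in armadillo. This order was the order by reads in platypus and in armadillo.

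Relatives of the group outside the 10 genes were described from lists of known ER genes. Of 16 further disulfide isomerase family genes, 10 were matched between platypus and dog, of which 2 were called higher in platypus and 1 lower, where 13.5% and 27.3% of all genes were. Their median log2 fold was 1.34, against -0.25 for all genes. The membrane-bound isomerase gene TMX4 stood at 382 normalised CPM in platypus, 2.63 in dog and 32.6 in armadillo. ERP29, a thioredoxin-fold chaperone without an active-site cysteine pair, stood at 1005 normalised CPM in platypus, 97.5 in dog and 183 in armadillo. TMX2 was listed at 0 in platypus and had 2504 reads in dog, so it was at least 91.3-fold lower in platypus if 3 reads are allowed for the count of 0. Against armadillo, 4 of 9 of these relatives were called higher in platypus (TXNDC15, TMX1, TMX4 and ERP29) and 0 lower, where 13.2% and 34.0% of all genes were, with a median of 1.29 against -0.89 for all genes. TXNDC16 had the lowest fold, at 3.74 normalised CPM in platypus and 10.2 in armadillo.

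None of the 3 other CREC genes came near the RCN2 level in platypus. CALU (calumenin) stood at 473 normalised CPM in platypus, 97.6 in dog and 221 in armadillo. RCN3 and SDF4 were listed at 0 in platypus and had 682 and 2118 reads in dog, so they were at least 24.9-fold and 77.2-fold lower in platypus. Neither was listed by symbol in armadillo. RCN2 had 48.7 reads per CALU read in platypus (95% interval 45.6 to 52.1), 0.417 in dog (95% interval 0.381 to 0.456) and 0.340 in armadillo (95% interval 0.316 to 0.365).

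Genes of thiol oxidation, which supply or balance the oxidising power used by the isomerases, went in both directions. Of 5 matched between platypus and dog, 3 were called higher in platypus (PRDX4, GPX7 and GPX8) and 1 lower (QSOX1), where 13.5% and 27.3% of all genes were, with a median log2 fold of 3.54 against -0.25 for all genes. Of 3 matched with armadillo, 1 was called higher (GPX7) and 1 lower (QSOX1), where 13.2% and 34.0% of all genes were. The median log2 fold of these 3 genes, that of GPX8, lay above the -0.89 of all genes. The peroxidase gene GPX8 stood at 99.5 normalised CPM in platypus, 0.643 in dog and 31.7 in armadillo, and GPX7 at 226 in platypus, 18.5 in dog and 4.75 in armadillo. PRDX4, an ER peroxiredoxin on the same list that is described here because of its value, stood at 3344 normalised CPM in platypus and 63.3 in dog, a 52.8-fold (95% interval 49.5 to 56.4) difference. The sulfhydryl oxidase gene QSOX1 stood at 7.49 normalised CPM (14 reads) in platypus, 34.0 in dog and 885 in armadillo. The main ER oxidase gene ERO1L was listed in dog at 93.4 normalised CPM and in armadillo at 41.0, and no platypus row carried its symbol.

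The lectin partners of PDIA3 in glycoprotein folding differed less between platypus and the other species than PDIA3 did. CALR (calreticulin) stood at 6229.7 normalised CPM in platypus, 892 in dog and 1244 in armadillo, a 6.99-fold (95% interval 6.82 to 7.16) difference from dog. CANX (calnexin) stood at 1519 normalised CPM in platypus and 527 in armadillo, and the dog row CALX_CANFA, the UniProt entry name of calnexin, at 1167. PDIA3 had 2.95 reads per CALR read in platypus (95% interval 2.89 to 3.02), against 0.834 in dog (95% interval 0.815 to 0.854) and 0.822 in armadillo (95% interval 0.803 to 0.841). The PDIA3 to CALR proportion of dog and that of armadillo lay within each other's intervals. MLEC, the gene of the ER lectin malectin, stood at 247 normalised CPM in platypus, 46.1 in dog and 55.4 in armadillo. PRKCSH, a glucosidase subunit gene, stood at 10.7 normalised CPM in platypus and 365 in dog, and UGGT2 was listed at 0 in platypus and had 169 reads in armadillo. In all, 2 of 5 matched genes of the cycle (CALR and MLEC) were called higher and 2 lower in platypus in each comparison. Those lower were UGGT1 and PRKCSH over dog, and UGGT1 and UGGT2 over armadillo. Of all genes, 13.5% were called higher and 27.3% lower over dog, and 13.2% and 34.0% over armadillo. The median log2 fold over dog was -1.23, or 0.15 with the gene at 0 set to 3 reads, against -0.25 for all genes. The median over armadillo was 1.52, against -0.89 for all genes.

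**Figure D4:**
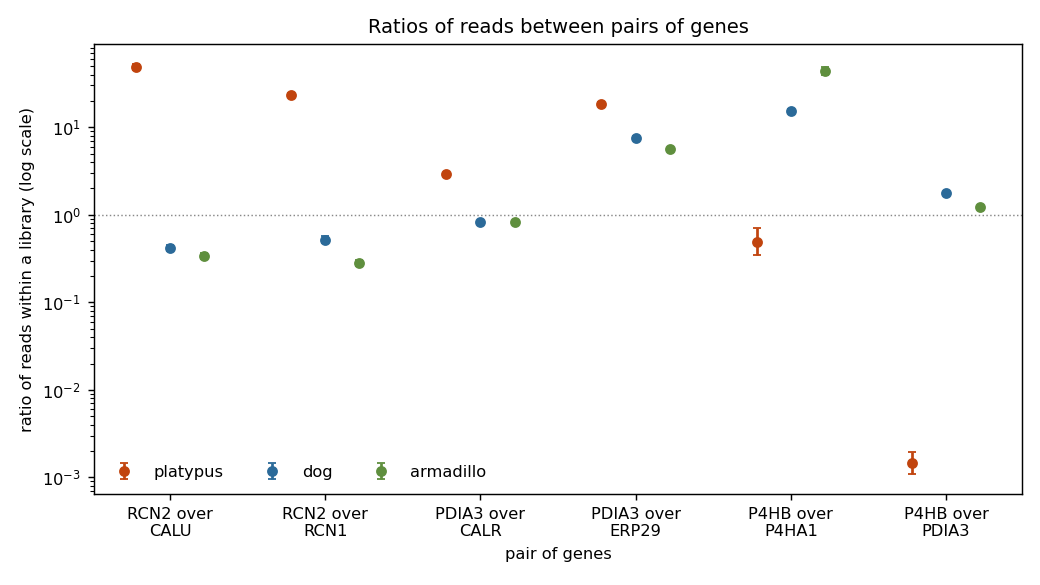
Ratio of reads between pairs of genes within each library, on a log axis with exact 95% intervals and a dotted line at equal reads. PDIA3 over CALR is 2.95 in platypus, 0.834 in dog and 0.822 in armadillo, while P4HB over PDIA3 is 0.00148 in platypus, 1.77 in dog and 1.22 in armadillo.

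Several general ER chaperone genes were also higher in platypus, and the best known of them less so than PDIA4 or PDIA6. HSPA5 (BiP, the ER member of the heat shock protein family A) stood at 5389.9 normalised CPM in platypus and 916 in dog, a 5.89-fold (95% interval 5.74 to 6.04) difference, and had no row by symbol in armadillo. PDIA6 had 2.77 reads per HSPA5 read in platypus (95% interval 2.70 to 2.83) and 0.402 in dog (95% interval 0.390 to 0.414). HSP90B1 was listed by symbol only in armadillo, at 1546 normalised CPM, and under the UniProt entry name ENPL_CANFA in dog, at 1507. Of 9 chaperone and prolyl isomerase genes matched with dog, 5 were called higher in platypus and 2 lower, where 13.5% and 27.3% of all genes were, with a median log2 fold of 2.56 against -0.25 for all genes. FKBP14, a prolyl isomerase gene, had the highest fold over dog, at 53.5 normalised CPM in platypus and 2.81 in dog. The cochaperone gene DNAJB11 had the highest over armadillo, at 984 in platypus and 85.3 in armadillo. In dog it was listed under the UniProt entry name DJB11_CANFA, at 126. FKBP10, a collagen chaperone gene, was listed at 0 in platypus and was at least 33.3-fold lower there than in dog and 86.6-fold lower than in armadillo. Of 7 genes of the list matched with armadillo, 3 were called higher in platypus and 2 lower, where 13.2% and 34.0% of all genes were, with a median of 1.86 against -0.89 for all genes.

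Partners of P4HB and collagen-modifying genes were called lower in platypus at about the rate of all genes. The catalytic subunits of collagen prolyl hydroxylase were low to moderate. P4HA1 stood at 55.1 normalised CPM in platypus, 86.2 in dog and 28.3 in armadillo, and P4HA2 at 16.6 in platypus (31 reads), 79.8 in dog and 119.7 in armadillo. P4HB had 0.495 reads per P4HA1 read in platypus (95% interval 0.347 to 0.699), 15.3 in dog (95% interval 14.5 to 16.2) and 44.1 in armadillo (95% interval 39.8 to 48.9). SERPINH1, the collagen chaperone HSP47, stood at 755 normalised CPM in platypus, 246 in dog and 1172 in armadillo. PLOD3, a lysyl hydroxylase gene, had 1 read in platypus and stood at 118 normalised CPM in dog and 121 in armadillo. MTTP was listed at 0 in platypus and had 2 reads in dog. Of 8 genes matched with dog, 0 were called higher and 2 lower in platypus, where 13.5% and 27.3% of all genes were, with a median log2 fold of -0.16 against -0.25 for all genes. Of 5 matched with armadillo, 0 were called higher and 2 lower, where 13.2% and 34.0% of all genes were, with a median of -0.71 against -0.89 for all genes.

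Genes of the unfolded protein response, the pathway that induces ER chaperones when folding capacity is short, included several with higher platypus levels. XBP1, a transcription factor of the response, stood at 880.5 normalised CPM in platypus and 109.9 in dog, an 8.01-fold (95% interval 7.49 to 8.56) difference. It had no row by symbol in armadillo. The factors ATF4 and ATF6 of the same list were not called. ATF4 stood at 497 normalised CPM in platypus and 427 in dog, and ATF6 at 33.2 in platypus, 60.0 in dog and 45.5 in armadillo. DERL3, a component of ER-associated degradation of secretory cells, stood at 1051 normalised CPM in platypus, 8.36 in dog and 1.36 in armadillo. CREB3L1, an ER-bound transcription factor gene of matrix-secreting cells, was listed at 0 in platypus and was at least 16.9-fold lower than in dog and 57.3-fold lower than in armadillo. Of 12 genes matched with dog, 3 were called higher and 1 lower in platypus, where 13.5% and 27.3% of all genes were, with a median log2 fold of 1.06 against -0.25 for all genes. Of 10 matched with armadillo, 3 were called higher and 1 lower, where 13.2% and 34.0% of all genes were, with a median of 1.14 against -0.89 for all genes. Among markers of plasma and B cells, which are rich in ER, the summed level was 1478 normalised CPM over 8 listed genes in platypus, 119.9 over 9 in dog and 14 over 5 in armadillo. IGHM stood at 1473 normalised CPM in platypus and 10.2 in dog. It had no row under its symbol in armadillo, so these sums run over different genes. In dog, SDC1 gave 1288 of the 2049 reads of the 9 listed markers. In the platypus table IGJ, CD79B, SDC1 and IRF4 were listed at 0, and IGHM gave 2754 of the 2763 reads of the 8 listed markers. The part of such cells in the levels of the isomerases was not tested.

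**Figure D5:**
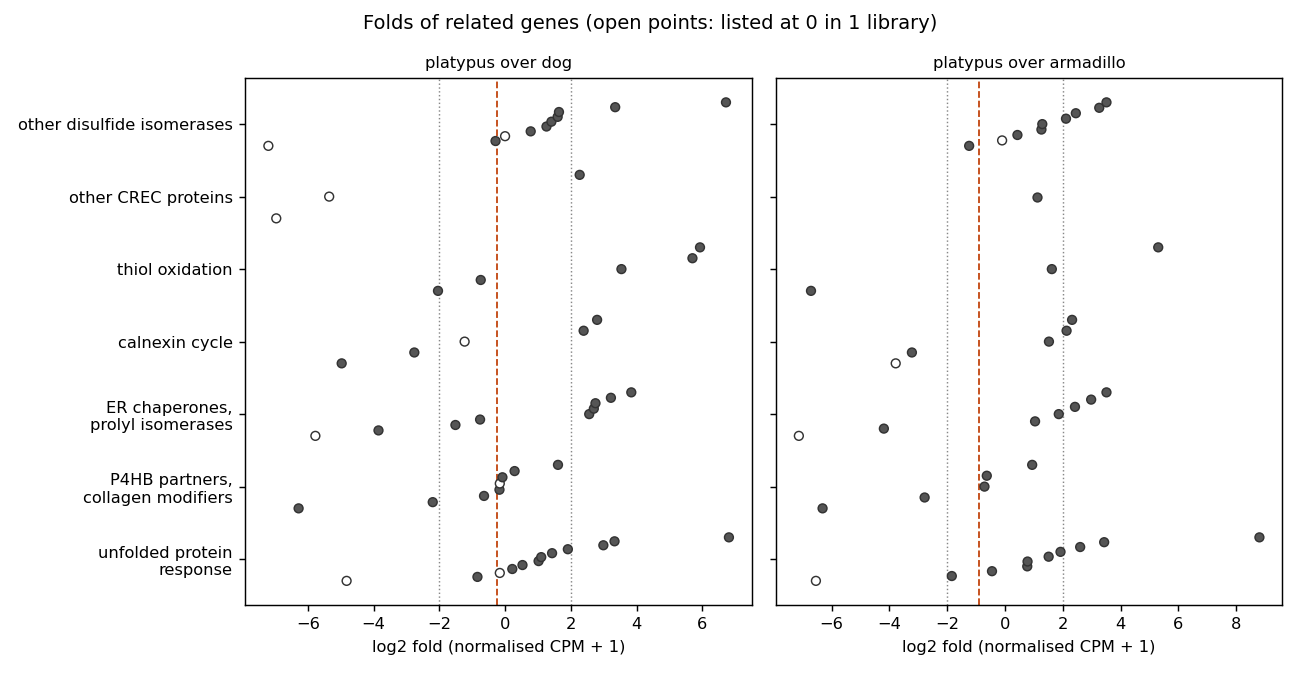
Log2 folds of the genes of 7 related lists for platypus over dog (left) and platypus over armadillo (right), 1 point per gene, with open points for genes listed at 0 in a library. Dashed lines mark the medians of all matched genes at -0.25 and -0.89 and dotted lines the 4-fold limits; the P4HB partners have no point above the upper limit.

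The genes with a profile most like that of RCN2 were sought among 6386 genes matched in all tables. The measure was the root mean square difference of log2 of normalised CPM plus 1, centred on the mean over the 3 libraries. The homeobox gene MSX1 was nearest, with a difference of 0.55 and levels of 772 normalised CPM in platypus, 2.52 in dog and 2.41 in armadillo. The scaffold protein gene IQGAP2 followed with 0.78 (920.1, 4.04 and 8.82 normalised CPM in platypus, dog and armadillo), and the matrix proteoglycan gene OGN with 0.78 (248, 0.585 and 1.21). For P4HB the nearest were CUL4B with a difference of 0.03 (listed at 0 in platypus, 47.7 normalised CPM in dog and 43.2 in armadillo), ABCF2 with 0.03 (1.07, 92.1 and 90.9 in platypus, dog and armadillo) and UBAP2 with 0.04 (2.67, 162 and 150.1). CUL4B, ABCF2 and UBAP2 had 0, 2 and 5 platypus reads against 51 for P4HB, so their likeness depends on the added 1. The added 1 also bears on the genes like RCN2, whose dog levels lay between 0.585 and 4.04 normalised CPM. None of these 6 genes was on the lists of ER genes, and MSX1 was on the list of endometrial markers. A likeness over 3 libraries is a description of these values.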

How the data were processed

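The dog table holds the authors' estimated counts of reads for each gene, beside mapped bases and a relative abundance, which are scores as deposited, per the file headers. The read column equalled mapped bases divided by the read length of 34 bases for all 19290 genes within 0.01 reads, and 516 values that were not whole were rounded. For armadillo and platypus they deposited raw counts per gene, per the file headers. Bowtie is named in the submitters' processing notes; its version, the genome builds, the annotation and the strand setting were not given in the sources used here, so reads of overlapping genes cannot be separated. Lines with totals were left out. Genes were matched by upper-case symbol where a symbol occurred once (9073 between platypus and dog, 7296 between platypus and armadillo, 8908 between dog and armadillo). CPM was reads over the summed gene counts. To normalise it, each library was multiplied by its median-of-ratios factor, taken from the 3496 genes that had at least 2 CPM everywhere. The factor was 1.20 for platypus, 0.797 for dog and 0.997 for armadillo. Calls needed a 4-fold difference after adding 1 normalised CPM and 5 normalised CPM in the higher library. Printed folds have no pseudocount and an exact interval conditional on both counts, levels an exact Poisson interval and shares an exact binomial (Clopper-Pearson) interval. Reads are not independent molecules, so intervals cover counting error only. A count of 0 was allowed 3 reads, or 1.60 normalised CPM in platypus. Counts are not corrected for gene length. No p-value was computed, since each species had 1 library. The members, lists and named genes were chosen with earlier results of these data known: all members, the extreme genes of each related list, some partners by name and the 3 genes most like RCN2 and P4HB. Calls were checked on simulated counts. Python 3.11.15, numpy 2.4.6, pandas 2.3.3 and scipy 1.17.1 were used. Alternatives covered scaling, pseudocount, filter, fold limit, second rows of a gene and library totals, and the use of dog gene lengths for the other species was added after seeing the data.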

Additional observations from a re-analysis of the deposited data

How the results depend on the processing

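No paired analysis was possible because each species had 1 library, and none could be left out of a comparison. Between platypus and dog the count of genes called higher in platypus was 7 or 8 and the count called lower was 1 under every alternative tried for scaling, pseudocount, filter, fold limit, second rows and totals. Between platypus and armadillo the count called higher was 5 to 7 and the count called lower was 1; AGR2 was lost when 2 CPM was required in both libraries. Between dog and armadillo the single call, AGR2, was lost with a pseudocount of 5 normalised CPM and with 2 CPM required in both libraries, which left 0 of 8 genes called, since its armadillo count is 1 read. With a fold limit of 2, 4 genes were called, of which 3 (PDIA6, ERP44 and RCN1) were lower in dog. Leaving out genes at 0 reversed the platypus over dog median of the other CREC genes to 2.27 (1 gene left), of the secretory epithelium markers to 4.57 (1 gene left) and of the plasma and B cell markers to 1.19. Over all genes, requiring 2 CPM in both libraries left 783 called higher and 855 lower in platypus than in dog (1221 and 2474 without it), 759 and 842 for platypus over armadillo (963 and 2484), and 814 lower for dog over armadillo (1358). A fold limit of 2 gave 1934 higher for platypus over dog, 1594 for platypus over armadillo, and 1895 higher and 2314 lower for dog over armadillo (869 and 1358 at 4-fold). The split of calls, 33.0% higher for platypus over dog, lay between 23.7% and 47.8% under the alternatives. Leaving out the member with most reads moved 20 shares of the other members in the group's reads beyond their intervals and left 1, that of AGR2 in armadillo, within it. Per dog gene length, PDIA5 and RCN2 exchanged places in dog. Depth limits AGR2 in armadillo (1 read) and P4HB in platypus (51 reads).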

Other observations

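The neighbours of the group were read from the order of protein-coding genes in the dog RefSeq table (assembly UU_Cfam_GSD_1.0), used only for names and order. Next to RCN2 in dog, SCAPER, a cyclin A binding protein gene, stood at 18.2 normalised CPM in platypus, 26.1 in dog and 23.2 in armadillo. PSTPIP1, a cytoskeletal adaptor gene of leukocytes with another gene between it and RCN2, stood at 2.14 in platypus and 0.585 in dog. Next to PDIA6, the vacuolar proton pump subunit gene ATP6V1C2 stood at 1.07 normalised CPM in platypus, 53.4 in dog and 4.83 in armadillo. On the other side of PDIA6, the potassium channel gene KCNF1 stood at 99 in platypus, 0.234 in dog and 0.829 in armadillo. The ribosome biogenesis gene NOL10, beyond ATP6V1C2, stood at 107 in platypus, 142 in dog and 46.5 in armadillo. AHR, the aryl hydrocarbon receptor gene beside AGR2, was listed at 0 in platypus and stood at 9.42 normalised CPM in dog and 159 in armadillo. WT1, a transcription factor gene near RCN1, stood at 92.5 normalised CPM in platypus and 8.72 in dog. The highest of these neighbours in platypus, NOL10 at 107 normalised CPM, stood below PDIA6 at 14904 and RCN2 at 23040.1. The gene order in platypus was not used here.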
